A study of Danio rerio with 4 samples.

Results

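The immediate early genes of the AP-1 group went different ways in zebrafish retinas that received the id2a morpholino: fos rose, junb fell, and jun, jund, atf3 and egr1 gave values that overlapped between the groups. The members were every gene whose symbol in the authors' comparison table was fos, jun, junb, jund, egr1, atf3 or ier2, with the copy suffix dropped. This rule found 9 genes with 14 transcripts, of 26355 genes with 46226 transcripts in all. They are fos, 2 further copies written FOS (2 of 3) and FOS (3 of 3), jun, junb, jund, egr1, atf3 and IER2. The present gene list calls FOS (2 of 3) fosaa and IER2 ier2b.

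Poly-A RNA was sequenced from retinas dissected at 48 hours post fertilization, in 2 libraries from embryos that received the id2a morpholino and 2 control libraries from embryos that received the morpholino labelled Id2aMM. Morpholinos are synthetic antisense oligomers used to stop an RNA from being translated or spliced. Both groups therefore carry a morpholino, and the labels give no uninjected group, strain or number of embryos per library. The design text calls the replicates biological. Total counts were 42980929 and 54710062 in knockdown replicates 1 and 2 and 50230438 and 53652256 in control replicates 1 and 2. The id2a transcript with the smallest p was at 41.6 and 36.8 CPM (counts scaled to a common library size) in the knockdown libraries, against 32.7 and 20.8 CPM in the control libraries (log2 fold change 0.55, edgeR adjusted p = 0.231). The other id2a transcript, the more abundant, was at 84.8 and 70.6 CPM in the knockdown and at 82.3 and 59.5 CPM in controls (edgeR adjusted p = 0.768). The label of the knockdown is thus not checked by its target's RNA.

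AP-1 is a family of dimeric transcription factors built from basic leucine zipper (bZIP) proteins. Fos proteins bind DNA mainly as partners of Jun proteins, whereas Jun proteins can also pair with each other. Many of these genes are immediate early genes, switched on within minutes of a stimulus through kinases and factors already present in the cell, and their RNAs are short-lived. Atf3 is a stress-induced bZIP protein of the ATF/CREB family that can pair with Jun. Egr1 is a zinc finger factor and Ier2 a nuclear protein; these are induced with Fos but are not AP-1 subunits. In the adult fish retina, AP-1 genes are known for their induction in Muller glia after injury.

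The members were chosen by symbol, and the symbols were selected on the measured difference between these knockdown and control libraries. Their differences are therefore described with values and no p, and the counts of calls among them support nothing. Of the 8 members that passed the filter on low counts, 1 was called higher and 1 lower by edgeR at an adjusted p under 0.05. Over all 20875 tested genes, 8.06% were called, 2.37% higher and 5.70% lower. Among the 11 tested member transcripts the groups did not overlap in 5, with 2 higher and 3 lower in the knockdown. Over all 37012 tested transcripts the groups did not overlap in 60.7%, with 29.2% higher and 31.5% lower. The median log2 fold change of the 8 genes was -0.18, against -0.04 over all tested genes, both on the transcript with the highest mean CPM. RNA of whole retinas was measured, so fewer cells of a type and less RNA per cell cannot be told apart in any value that follows.

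**Figure D1:**
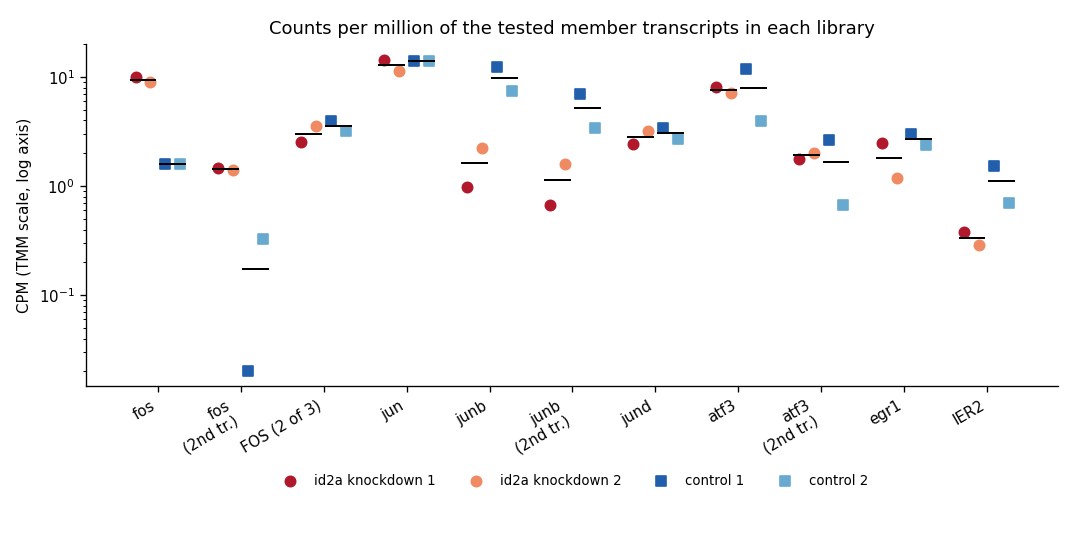
CPM (log axis, TMM scale) of the 11 tested member transcripts in the 2 id2a knockdown libraries (circles) and the 2 control libraries (squares), with the mean of each group as a line. Both knockdown libraries lie above both controls for the 2 fos transcripts and below them for the 2 junb transcripts and IER2, and the groups overlap for the other 6.

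The fos gene encodes c-Fos, a partner of Jun proteins. Its main transcript (chromosome 20) was at 10.02 and 8.97 CPM in knockdown replicates 1 and 2, against 1.60 and 1.59 CPM in control replicates 1 and 2. These values rest on 420 and 495 counts in the knockdown and 79 and 88 counts in the controls. The libraries of each group lay close together and the groups were far apart. The mean was 9.495 ± 0.740 CPM in the knockdown and 1.59 ± 0.00413 CPM in controls (SD, n = 2 each). With 2 libraries a group, the small SD of the controls is no measure of how far further libraries would vary. The log2 fold change was 2.57 (SE 0.28), or 5.95-fold. The SE comes from the fit and is no spread between libraries. Of the 20875 tested genes, 66 had a larger log2 fold change on the same kind of transcript. Since fos was chosen on this same difference, its place among all genes supports nothing. The value of fos lay between 2.51 and 2.65 when any 1 library was left out.

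A second fos transcript held 62 and 78 counts in the knockdown libraries and 1 and 18 counts in the control libraries, with a log2 fold change of 3.02 (SE 0.87). When reads were split over the transcripts they hit, it kept 50.0% of its counts in each of the 4 libraries, so it had no reads of its own. Counted once per read over both transcripts, fos held 420 and 495 reads in the knockdown and 79 and 88 in controls, the counts of the main transcript. The second transcript therefore gives no independent measure of fos. Its counts came to 14.8% and 15.8% of those of the main transcript in the knockdown, against 1.27% and 20.5% in controls, and control replicate 1 stands apart in this ratio.

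FOS (2 of 3), on chromosome 17, did not share the pattern of fos. It was at 2.53 and 3.53 CPM in the knockdown libraries and at 3.94 and 3.202 CPM in the control libraries, with control replicate 2 below knockdown replicate 2. The log2 fold change was -0.23 (SE 0.33). Most of its counts were shared with other transcripts: splitting kept 25.8% and 25.9% of them in the knockdown and 41.4% and 42.1% in controls. On split reads it held 27.4 and 50.6 reads in the knockdown, against 80.6 and 74.5 in controls, and its log2 fold change was -0.85. Its level is thus uncertain. FOS (3 of 3), on chromosome 20, was barely detected and none of its 3 transcripts was tested. The first held 5 and 0 counts in the knockdown and 5 and 6 counts in controls, and each of the other two held 4 counts in knockdown replicate 1 and 0 in the other libraries.

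The Jun members included 1 gene that fell. The main junb transcript (chromosome 1) was at 0.978 and 2.25 CPM in knockdown replicates 1 and 2, against 12.4 and 7.42 CPM in control replicates 1 and 2. Both knockdown libraries were below both controls, with knockdown replicate 1 the lowest and control replicate 1 the highest. The group means were 1.61 ± 0.898 CPM in the knockdown and 9.89 ± 3.49 CPM in controls (SD, n = 2 each). The log2 fold change was -2.60 (SE 0.45), or 6.06-fold lower. Of the tested genes, 515 had a lower value. Since junb was chosen on this same difference, its place supports nothing. Left-out libraries gave -3.33 without knockdown replicate 2, -2.12 without knockdown replicate 1, -2.92 without control replicate 2 and -2.16 without control replicate 1. JunB is a Jun protein that can oppose c-Jun at some promoters.

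The second junb transcript was at 0.668 and 1.59 CPM in the knockdown libraries and 7.06 and 3.38 CPM in the control libraries, a log2 fold change of -2.19 (SE 0.52). Splitting kept 50.8% to 55.3% of its counts, so most of its reads were shared. Counted once per read, junb held 41.1 and 130.0 reads in the knockdown and 616.7 and 430.0 in controls.

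For jun and jund the groups overlapped. The jun transcript (chromosome 20), which encodes c-Jun, was at 14.4 and 11.3 CPM in the knockdown libraries and at 14.1 and 14.1 CPM in the control libraries (log2 fold change -0.13, SE 0.25). The jund transcript (chromosome 2) was at 2.41 and 3.21 CPM in the knockdown and at 3.38 and 2.73 CPM in controls (log2 fold change -0.12, SE 0.33). JunD is the Jun protein most often found in resting cells. Both genes kept 100% of their counts on splitting in every library, so neither shared reads with another transcript. A fold change near 0 in 2 libraries a group does not show that a gene was unaltered.

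Atf3 depended on which control library was read. Its main transcript (chromosome 20) was at 8.13 and 7.09 CPM in the knockdown libraries, and at 11.7 and 3.98 CPM in control replicates 1 and 2. The controls lay on either side of both knockdown libraries. The log2 fold change was -0.05 (SE 0.45) with all libraries, 0.96 without control replicate 1 and -0.62 without control replicate 2. Its second transcript kept 50.0% of its counts on splitting and showed the same spread, with 75 and 112 counts in the knockdown and 131 and 37 counts in controls.

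The members outside the bZIP family, egr1 and IER2, were at 0.290 to 3.01 CPM, a measure not corrected for transcript length. Egr1 (chromosome 14) was at 2.48 and 1.18 CPM in the knockdown libraries and at 3.01 and 2.37 CPM in controls, so that knockdown replicate 1 lay between the controls. Its log2 fold change of -0.56 (SE 0.44) became -1.17 when knockdown replicate 1 was left out and -0.11 when knockdown replicate 2 was. IER2 (chromosome 11) was at 0.382 and 0.290 CPM in the knockdown and at 1.54 and 0.705 CPM in controls, from 16 and 16 counts in the knockdown and 76 and 39 in controls. Both knockdown libraries were below both controls, and the gene was not called. Its log2 fold change of -1.74 (SE 0.61) was -1.05 without control replicate 1 and -2.19 without control replicate 2.

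**Figure D2:**
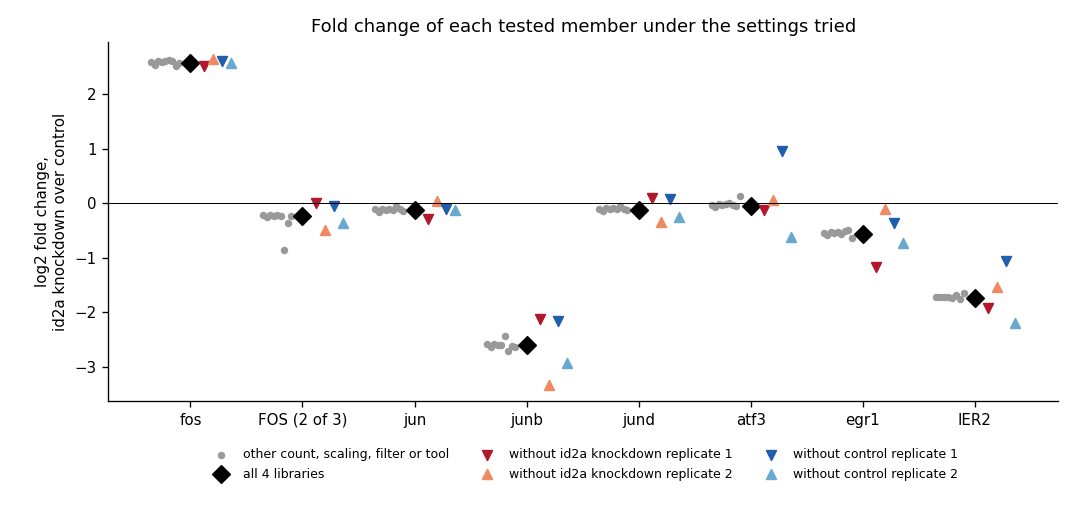
Log2 fold change of id2a knockdown over control for the 8 tested members, with all 4 libraries (diamonds), with 1 library left out (triangles) and under the other counts, scalings, filters and tools (grey points). The value of fos stays between 2.51 and 2.65, that of junb between -3.33 and -2.12, and that of atf3 crosses 0, from -0.62 to 0.96.

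In the authors' deposited table, the log2 fold change was 2.54 for the main fos transcript and -2.60 for the main junb transcript. Over the tested member transcripts, the present values differed from those of the authors' deposited table by at most 0.12. Both rest on the same 4 libraries.

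Levels of different genes were compared per length, as RPKM of split reads (reads per kilobase and library size), with transcript lengths solved from the deposited scores. In the knockdown the order was jun (11.96 to 15.0), fos (12.1 to 13.2), atf3 (7.59 to 7.84), jund (4.73 to 6.39), junb (1.59 to 3.90), IER2 (1.12 to 1.46), egr1 (0.730 to 1.52), FOS (2 of 3) (0.251 to 0.358) and FOS (3 of 3) (0 to 0.116). The ranges of jun and fos overlapped, as did those of IER2 and egr1. In controls the order was junb (11.7 to 19.4), jun (14.6 and 14.6), atf3 (3.53 to 11.5), jund (5.34 to 6.61), IER2 (2.68 to 5.85), fos (1.86 to 2.20), egr1 (1.46 to 1.85), FOS (2 of 3) (0.516 to 0.626) and FOS (3 of 3) (0.210 to 0.225). The ranges of junb and jun overlapped, and so did those of atf3, jund and IER2, each with its neighbour. Fos thus stood in the second place in the knockdown and in the sixth in controls, while junb stood in the fifth in the knockdown and in the first in controls. The level of FOS (3 of 3) rests on 1 of its 3 transcripts, the one with a solved length.

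Set against their own families, fos held the larger part of the Fos family RNA in the knockdown and junb a smaller part of the Jun family RNA. Fos made up 78.9% and 83.2% of the summed per-length level of 6 Fos family genes in knockdown replicates 1 and 2, against 20.5% and 31.1% in control replicates 1 and 2. The largest share in controls was that of fosl2, the gene of the Fos-related protein Fra-2, with 59.4% and 48.8%, against 10.8% and 8.10% in the knockdown. The family summed to 16.8 and 14.6 RPKM of split reads in the knockdown and to 9.06 and 7.07 in controls. In the Jun family of 4 genes, junb held 4.54% and 11.9% in the knockdown, against 38.8% and 30.3% in controls. Its paralog junbl held 39.2% and 32.1% in the knockdown, against 18.8% and 18.1% in controls. The level of junbl itself was 13.7 and 10.5 RPKM of split reads in the knockdown and 9.39 and 6.97 in controls, and the gene was not called (log2 fold change 0.55). A share also moves with the sum it is taken of. The Jun family summed to 35.04 and 32.8 in the knockdown and to 49.9 and 38.6 in controls. These shares describe RNA, and no protein or dimer was measured.

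**Figure D3:**
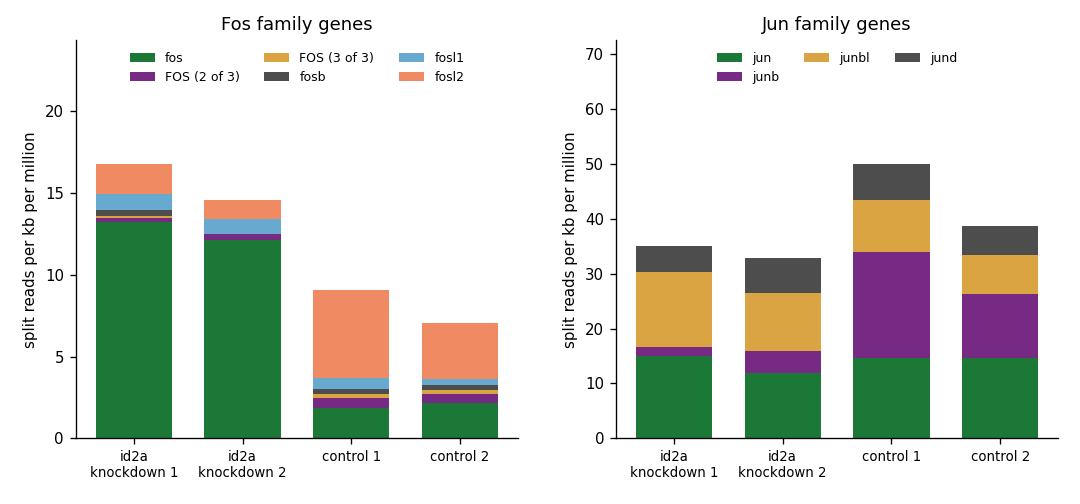
Summed level of the Fos family genes (left) and Jun family genes (right) in each library, as RPKM of split reads, stacked by gene, with the 2 id2a knockdown libraries left of the 2 controls. Fos fills 78.9% and 83.2% of the Fos bars in the knockdown and fosl2 59.4% and 48.8% in controls, and junb fills 4.54% and 11.9% of the Jun bars in the knockdown and 38.8% and 30.3% in controls.

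Genes around the members were read from lists of known function, chosen with earlier results of these data known. EdgeR called 8.06% of all 20875 tested genes, 2.37% higher and 5.70% lower. A count near these shares is no result about its list. The edgeR adjusted p-values given are over all tested transcripts, and CPM of list genes are those of the transcript with the smallest p unless said otherwise. Medians and summed CPM of a list use the transcript of each gene with the highest mean CPM. A median and the calls beside it can thus rest on different transcripts. Of 12 tested further AP-1 and small Maf bZIP genes, fosl2 fell and 11 did not pass (median log2 fold change -0.44). Fosl2 was at 3.98 and 2.83 CPM in the knockdown libraries and at 12.7 and 7.52 CPM in the control libraries (log2 fold change -1.57, SE 0.34, edgeR adjusted p = 0.0388). Thus fosl2, like junb and unlike fos, was lower in both knockdown libraries. The small Maf gene maff did not pass, at 7.66 and 9.68 CPM in the knockdown and 23.8 and 15.4 CPM in controls (edgeR adjusted p = 0.0517). Fosl1, which encodes Fra-1, was at 1.41 and 1.12 CPM in the knockdown and at 1.13 and 0.597 CPM in controls on its most abundant transcript, and the groups overlapped (log2 fold change 0.55, edgeR adjusted p = 0.523). A minor fosl1 transcript had the smallest p of the gene, at 0.310 and 0.254 CPM in the knockdown and at 0.0404 and 0 CPM in controls (edgeR adjusted p = 0.0907).

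Of 61 tested other immediate early genes, 6 fell, none rose and 55 did not pass by edgeR. At an unadjusted p under 0.05, 3 were higher and 13 lower, and DESeq2 called 3 higher and 7 lower. Over all tested genes 5.70% fell by edgeR, and 6413 of 20875 had an unadjusted p under 0.05. Over the same genes DESeq2 called 1301 higher and 2012 lower. The median of the list was -0.17, and -0.45 over the 47 genes left without 14 copies named PIM1. The 6 were nr4a2a and nr4a2b, which encode orphan nuclear receptors, the zinc finger factor klf4, the growth arrest gene gadd45g, and homer1 and HOMER1 (2 of 3), copies of a synaptic scaffold gene. Nr4a2b was at 0.787 and 1.69 CPM in the knockdown and at 7.04 and 5.26 CPM in controls (log2 fold change -2.30, edgeR adjusted p = 0.0267). Nr4a2a was at 4.72 and 5.18 CPM in the knockdown and at 11.4 and 12.1 CPM in controls (log2 fold change -1.25, edgeR adjusted p = 0.0323), and its value was -2.54 on split reads. Klf4 was at 0.191 and 0.127 CPM in the knockdown and at 1.33 and 1.01 CPM in controls (log2 fold change -2.88, edgeR adjusted p = 0.0356).

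Gadd45g was at 7.75 and 20.8 CPM in the knockdown and at 52.7 and 53.1 CPM in controls (log2 fold change -1.89, edgeR adjusted p = 0.0397). The knockdown libraries differed from each other in the same direction as for junb, with replicate 1 lower. The homer1 copies gave equal values in the knockdown, 1.03 and 1.47 CPM each, so they may count the same reads and cannot be told apart. The 3 genes next by p had higher values without passing. Gadd45aa was at 2.19 and 1.69 CPM in the knockdown and at 0.627 and 0.506 CPM in controls (edgeR adjusted p = 0.0538), myca at 85.2 and 69.2 CPM in the knockdown and 45.2 and 39.5 CPM in controls (edgeR adjusted p = 0.0564), and plk3 at 6.04 and 5.64 CPM in the knockdown and 2.43 and 3.04 CPM in controls (edgeR adjusted p = 0.0588). For plk3 this was a minor transcript, and its most abundant one was at 162.7 and 148.7 CPM in the knockdown and at 184.5 and 147.4 CPM in controls (log2 fold change -0.09, edgeR adjusted p = 0.822).

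Of 44 tested kinases and factors that act upstream of immediate early genes, mapk10, a neuronal Jun N-terminal kinase, fell and 43 did not pass (median -0.13). Mapk10 was at 1.24 and 2.59 CPM in the knockdown and at 7.16 and 6.44 CPM in controls (log2 fold change -1.82, edgeR adjusted p = 0.0364). Its most abundant transcript was at 1.55 and 3.17 CPM in the knockdown and at 8.03 and 7.25 CPM in controls (log2 fold change -1.68, edgeR adjusted p = 0.0394). Of 26 feedback and turnover genes, spred3 fell, zfp36l1a rose and 24 did not pass (median 0.11). Beside the counts of both lists, 8.06% of all tested genes were called, 2.37% higher and 5.70% lower. Spred3, an inhibitor of Ras to ERK signalling, was at 1.98 and 3.41 CPM in the knockdown and at 11.7 and 7.43 CPM in controls (log2 fold change -1.82, edgeR adjusted p = 0.0329). Zfp36l1a, which encodes a protein that promotes decay of AU-rich RNAs, was at 86.3 and 71.4 CPM in the knockdown and at 35.98 and 41.5 CPM in controls (log2 fold change 1.02, edgeR adjusted p = 0.0383).

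Of 20 tested genes known as AP-1 targets, mostly in mammalian cells, the matrix metalloproteinase gene mmp2 rose and 19 did not pass (median -0.54). The share called among all tested genes was 8.06%, with 2.37% higher. Mmp2 was at 33.01 and 34.5 CPM in the knockdown and at 7.26 and 14.8 CPM in controls (log2 fold change 1.61, edgeR adjusted p = 0.0368). The value was 2.22 without control replicate 2. Another metalloproteinase gene often read as an AP-1 target, mmp9, was at 0.286 and 0.399 CPM in the knockdown and at 1.15 and 0.904 CPM in controls and did not pass (edgeR adjusted p = 0.113).

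Stress genes were read because atf3 and fos respond to stress and to handling of tissue. EdgeR called 8.06% of all 20875 tested genes, and 6413 of these had an unadjusted p under 0.05. Among all tested genes DESeq2 called 1301 higher and 2012 lower. Of 15 genes of the integrated stress response around atf4, none passed by edgeR. An unadjusted p under 0.05 was reached by 3 higher and 6 lower genes, and DESeq2 called 0 higher and 3 lower (median -0.48). Of 22 heat shock genes none passed by edgeR, while 6 higher and 2 lower genes had an unadjusted p under 0.05, and there were 4 higher and 1 lower by DESeq2 (median 0.33). The heat shock gene hsp70l was at 25.7 and 11.7 CPM in the knockdown and at 5.93 and 7.49 CPM in controls (edgeR adjusted p = 0.0554). Hsp70 was at 26.55 and 12.1 CPM in the knockdown and at 6.35 and 7.96 CPM in controls (edgeR adjusted p = 0.0602). Hsp70.3 was at 28.5 and 12.7 CPM in the knockdown and at 6.71 and 8.79 CPM in controls (edgeR adjusted p = 0.0658). These copies are uncertain, since a read with several hits counts at each. The whole heat shock list summed to 9674 and 7684 CPM in the knockdown and to 8558 and 7598 CPM in controls, with the groups overlapping. The hsp70 genes are a small part of this sum, so its overlap says little about them.

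**Figure D4:**
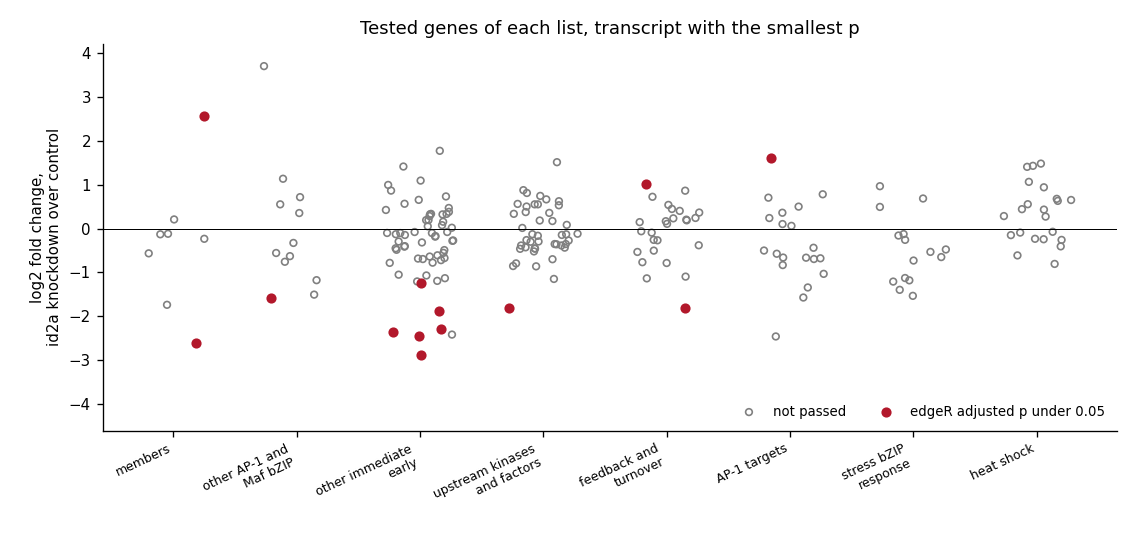
Log2 fold change of id2a knockdown over control for each tested gene of the members and 7 other lists, on the transcript with the smallest p, with genes at an edgeR adjusted p under 0.05 filled. The 6 called genes among other immediate early genes all lie below 0, and of the heat shock and stress bZIP genes none is filled.

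Some marker lists differed in the same libraries as fos and junb. Among all tested genes 2.37% were called higher and 5.70% lower by edgeR. Of 25 epidermis markers 17 fell and 8 did not pass (median -2.19), and none was at 0 in any library. Their summed level was 688 and 278.7 CPM in the knockdown and 2017 and 2166 CPM in controls. Junb was also lower in both knockdown libraries (0.978 and 2.25 CPM) than in both controls (12.4 and 7.42 CPM). Within the knockdown, replicate 1 was the higher library for the epidermis list and the lower for junb. Of 15 lens markers 10 rose and 5 did not pass (median 1.69), and the list summed to 2555 and 1555 CPM in the knockdown and to 698.9 and 695.4 CPM in controls. Fos was higher in the same libraries. What either tissue adds to fos, junb or IER2 was not tested.

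The labelled tissue was checked with 15 retina markers, and each was counted in every library. Among all 20875 tested genes, edgeR called 8.06%, 2.37% higher and 5.70% lower, and 6413 had an unadjusted p under 0.05. DESeq2 called 1301 of all tested genes higher and 2012 lower. The list summed to 1009.6 and 1448.5 CPM in the knockdown and to 2342 and 1788 CPM in controls. The list gave the libraries the same order as junb did, and a link between them was not tested. Of its genes rx1, a factor of retinal progenitor cells, rose, at 120.8 and 93.1 CPM in the knockdown and 46.1 and 50.4 CPM in controls on its most abundant transcript (log2 fold change 1.15, edgeR adjusted p = 0.0319). Of 9 Muller glia markers cahz fell and 8 did not pass by edgeR (median log2 fold change 0.13). An unadjusted p under 0.05 was reached by 0 higher and 4 lower genes, and DESeq2 called 0 higher and 3 lower. The list summed to 237 and 231 CPM in the knockdown and to 305.8 and 259.2 CPM in controls. Its sum was thus lower in the knockdown while its median gene was not. Of 16 leukocyte markers HCLS1 and mpeg1 fell, of 13 muscle markers 2 fell, of 14 periocular mesenchyme markers 2 fell and of 11 erythroid markers hbbe3 rose. At an unadjusted p under 0.05, 0 higher and 6 lower leukocyte genes were found, and 0 higher and 8 lower mesenchyme genes. DESeq2 called 0 higher and 4 lower in each of these 2 lists (medians -0.85 and -0.53). For muscle the unadjusted counts were 0 higher and 2 lower, and for erythroid genes 3 higher and 0 lower. The calls of the muscle gene myhz1.1, the mesenchyme gene col11a2 and the lens gene hsf4 rest on minor transcripts, and their most abundant ones did not pass (edgeR adjusted p = 0.0510, 0.994 and 0.0950). The leukocyte list summed to 113 and 97.0 CPM in the knockdown and to 115.3 and 83.8 CPM in controls, with 1 marker at 0 in knockdown replicate 1 and 1 in control replicate 1. Of 14 endothelial markers none passed by edgeR, while 0 higher genes and 1 lower gene had an unadjusted p under 0.05, and there were 0 by DESeq2. The same held for 10 pigment markers, where 1 higher gene and 0 lower genes had an unadjusted p under 0.05, and there were 0 by DESeq2.

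**Figure D5:**
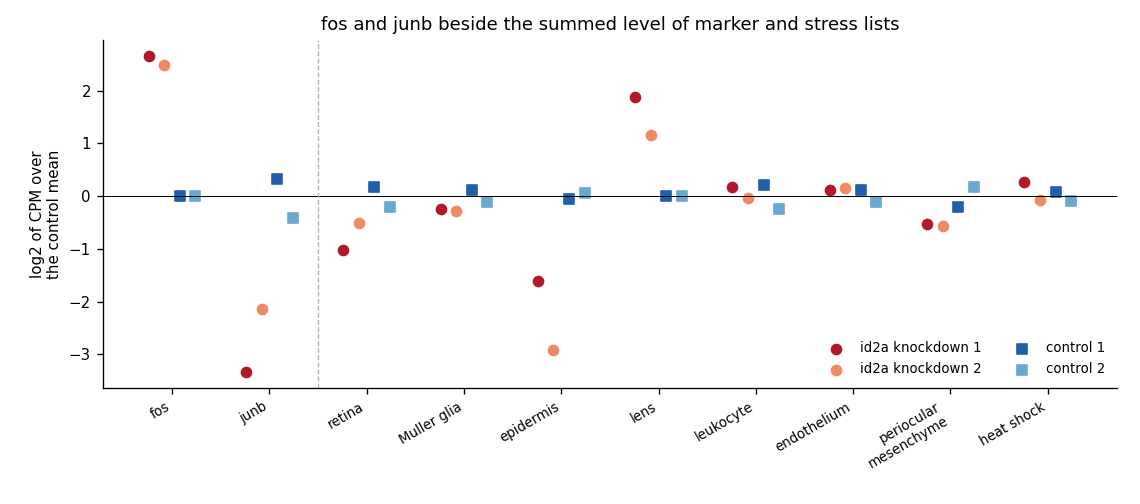
Log2 of the CPM of fos and junb (main transcripts), and of the summed CPM of 8 lists, over the mean of the 2 controls, in the 2 id2a knockdown libraries (circles) and the 2 control libraries (squares). The lens list lies above 0 in both knockdown libraries, as fos does. The epidermis, retina, Muller glia and periocular mesenchyme lists lie below 0 in both, as junb does. The Muller glia list lies only at -0.25 and -0.29, and the median log2 fold change of its genes was 0.13. Knockdown replicate 1 lies below replicate 2 for junb and the retina list, and above it for the epidermis list.

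The genes with the nearest profiles were found by the distance between centred log2(CPM + 1) profiles over the 4 libraries, among 7185 genes averaging at least 10 CPM. Such a likeness over 4 libraries is a description of few values. The 1 added to each CPM narrows the profiles of members at a few CPM, while the candidates averaged at least 10 CPM. Among the genes nearest to fos were mdm2 (distance 0.254), a ubiquitin ligase gene, and frem1b (0.322). The mdm2 transcript was at 76.0 and 74.7 CPM in the knockdown and at 22.2 and 19.6 CPM in controls. Nearest to junb were stxbp1a (0.0295), C24H16orf11 (0.140) and MAP4 (1 of 3) (0.150). Stxbp1a, which encodes a protein of neurotransmitter release, was at 6.87 and 11.7 CPM in the knockdown and at 51.2 and 32.6 CPM in controls, with the libraries in the same order as for junb.

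For the other members, the first of the nearest genes is given with its distance. Nearest to jun were rpl36a (0.0547), qk and RPL37A, and nearest to jund were tjp1 (0.0356), spna2 and PAK1 (1 of 2). FOS (2 of 3) was nearest to FAM178A (0.0212), egr1 to pabpc1b (0.166) and IER2 to slc1a2b (0.109), a glutamate transporter gene of glia. The log2 fold change was -1.74 for IER2 and -0.64 for slc1a2b, so this nearness is no likeness in the size of the change. Atf3 was nearest to phyhipla (0.108), which also had its highest value in control replicate 1 (21.3 CPM) and its lowest in control replicate 2 (7.63 CPM).

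The calls depended on which libraries were fitted. The 13 genes followed here were named for their calls in these same libraries. They include fos and junb, which were chosen on the same difference, so a call kept in part of the libraries supports nothing. Without control replicate 1, 0 of 13 called genes of the member, bZIP, immediate early, kinase, feedback and target lists named by rule remained called, and 0 genes of all 21589 tested, by edgeR (5420 genes had an unadjusted p under 0.05). With control replicate 2 left out, 4 of the 13 remained called, fos among them, while junb, fosl2, nr4a2a, nr4a2b, klf4, gadd45g, mapk10, spred3 and zfp36l1a lost their calls. Nr4a2a and zfp36l1a lost theirs without knockdown replicate 1, klf4 without knockdown replicate 2, and mapk10 on split reads. Without knockdown replicate 2, log2 fold changes were -2.96 for nr4a2b, -2.77 for gadd45g and -2.45 for mapk10. With reads summed per gene 6 of the 13 remained called, and fosl2, klf4, gadd45g, mapk10, spred3, zfp36l1a and mmp2 lost their calls.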

How the data were processed

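RNA was measured in 2 id2a knockdown and 2 control libraries, grouped by title. The deposited counts are whole-number alignments per transcript, and the deposited estimated counts divide a read among its matching transcripts; both exist for 1 mate and both mates, per the file headers. The file names give bowtie and Ensembl release 66 cDNA; no version, strand setting or build is given in the sources used here. A read with several hits counts in full at each (1.89 to 2.01 hits per read), so copies and overlapping genes are uncertain. The deposited score was a scaled RPKM of both mates, rounded to whole numbers: 98.8% to 99.7% of 43156 values per library were within 1 unit of it, and it was used for lengths only. The authors' deposited table holds log2 fold changes and adjusted p-values from DESeq, per the submitters' processing notes; those p-values were not used.

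Counts of 1 mate were tested per transcript with edgeR 4.0.16 (quasi-likelihood, TMM, its default filter on low counts, Benjamini-Hochberg adjustment over 37012 transcripts) in R 4.3.3, and a gene was called when any transcript had an adjusted p under 0.05. The script was tested on simulated data. DESeq2 1.42.0 and the other settings were alternatives, and estimated counts were rounded for them. The labels do not say whether libraries came from separate clutches, so the spread may be partly technical. With 2 libraries a group an exact permutation test cannot pass 0.05, and none was run.

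Members and lists were chosen with earlier results of these data known. Member levels, and medians and summed CPM of lists, are given for the transcript with the highest mean CPM. Calls, and levels of list genes unless said otherwise, are given for that with the smallest p. Named by rule were all members, up to 6 called genes and 3 further genes by p in each list, and the 3 nearest profiles per member; the text shows part of the lists, and some results are not reported here.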

Additional observations from a re-analysis of the deposited data

How the results depend on the processing

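Of all genes 1683 were called, 494 higher and 1189 lower. The counts in the same order were 3176, 1115 and 2061 with no filter, 3313, 1301 and 2012 by DESeq2, and 828, 208 and 620 with reads summed per gene. They were 3812, 1417 and 2395 at an adjusted p under 0.10 and 7, 2 and 5 under 0.01. Split reads gave 805 higher. Leaving out 1 library gave 0 to 3056 called, 0 to 1013 higher and 0 to 2043 lower, with 0 without control replicate 1 and 259 without control replicate 2. Where 1 library was left, it was assumed to vary like the other group. Among other immediate early genes 6 were called, against 10 with no filter, 10 by DESeq2, 10 under 0.10, 0 under 0.01 and 0 to 10 with a library left out. Without control replicate 1, where 0 were called by edgeR, an unadjusted p under 0.05 was reached by 5 higher and 12 lower genes. The median of the members was -0.18, and -0.50 to -0.08 with a library left out. The causes were not tested.

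Same-numbered libraries did not deviate together (r = -0.0184 over 37012 transcripts), and the numbers were read as names of libraries. With 2 libraries a group this check cannot exclude a shared clutch or batch. With the replicate number as a block, 2324 genes were called, 691 higher and 1633 lower, 8 other immediate early genes were called and the members' median was -0.19. All 13 named called genes remained called with the block. They were named for their calls in the same libraries, so this gives no independent support. Members at a few counts, FOS (3 of 3) and IER2, are limited by depth.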
